A study of Mus musculus with 28 samples.

Results

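The pituitary response to restraint alone was described in male mice, from 2 restrained animals (restraint mice 2 and 3) and 4 home cage controls (control mice 1 to 4). They are 6 of the 28 mice sequenced, and they were chosen by their labels of sex and treatment and not by any measured value. All 6 were C57BL/6J males labelled as 8 weeks old, which by the study's methods was their age on arrival. Restrained males spent 20 min in a plastic restrainer and were killed 10 min after release, whereas controls were left in the home cage without restraint, and none of the 6 was sleep deprived. By the study's methods, however, mice of every group were first adapted to the sleep deprivation procedure in short daily sessions before testing. The study also held females, and mice of both sexes that went through 12 h of paradoxical sleep deprivation (PSD), which wakes a mouse whenever it enters REM sleep, 18 h before the glands were taken. Its question was how lost sleep alters the pituitary response to an acute stressor, and restraint without PSD is the response from which that question starts. Whole pituitary glands were sequenced as mRNA, so anterior, intermediate and posterior lobe were read together at 1 time after the stressor.

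The pituitary is the middle station of the hypothalamic-pituitary-adrenal axis. During stress, hypothalamic corticotropin-releasing factor and vasopressin act on the corticotropes of the anterior lobe, which release adrenocorticotropic hormone from the Pomc precursor, and the adrenal glucocorticoids that follow feed back on the gland. Receptor signals through cAMP, calcium and MAP kinases first switch on immediate early genes, whose transcription needs no new protein and which encode transcription factors, together with genes of phosphatases, kinase inhibitors and other brakes on the same signals.

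The 6 libraries held 28602558 to 45849598 counts on genes, and the hormone transcripts Gh, Prl and Pomc made up 24.8% to 30.8% of them. Labels gave no batch or date for any library. Control mouse 1 stood apart. The summed level of 6 neurointermediate lobe markers was 380 CPM (counts scaled to library size with TMM factors) in this mouse, against 1383 to 1765 CPM in the other controls and 1291 and 1957 CPM in the restrained mice, and Avp with Oxt summed to 0.382 CPM against 10.2 to 18.2 CPM in the other mice of both groups. Its erythroid markers, at 2995 CPM, were above the 1571 to 1843 CPM of the other 5 mice. The macrophage and lymphocyte markers summed to 141 to 160 CPM in the controls and to 156 and 208 CPM in the restrained mice, and without Cd74, which was at 164 CPM in restraint mouse 3, to 45.2 to 48.2 CPM and to 47.7 and 43.2 CPM. The 7 forebrain markers, of which Neurod6 was below 0.1 CPM in all 6 mice, summed to 58.5 to 80.9 CPM in the controls and to 69.7 and 87.6 CPM in the restrained mice. No marker of the 8 cell types examined was called. The part of these differences in the results was not tested, and genes whose call changed without control mouse 1 are given with and without it where they are described.

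Restraint in males gave a short list of genes that almost all went up. Of the 18271 genes tested, 54 were called differentially expressed (0.296%), 53 of them higher after restraint (0.29% of all tested) and 1 lower (0.00547%). Calls rest on the quasi-likelihood test of edgeR, adjusted after Benjamini and Hochberg, at an adjusted p no larger than 0.05 and a log2 fold change no smaller than 0.322 in either direction. Where members of a gene list are counted as having risen or fallen, only called genes are meant. The increases ran from 1.33-fold to 30.0-fold with a median of 2.66-fold (median log2 fold change 1.41). With DESeq2, whose fold changes are shrunk towards 0, the same 53 genes had a median log2 fold change of 0.62, the highest being 1.37 for Egr3, and Nr4a1 had 0.41. The increases from edgeR, which are not shrunk, were more than 2-fold in 36 genes, more than 4-fold in 18 and more than 8-fold in 9. The median log2 fold change of all tested genes was -0.0028 in edgeR. In each of the 54 genes both restrained mice lay outside the range of the 4 controls, as they also did on the upper side in 6.34% and on the lower side in 6.89% of all tested genes. In bulk RNA such as this, a change in the number of cells of a type and a change of RNA per cell cannot be told apart. Without control mouse 1 the count was 63, with 49 of the 54 among them. It was 27, 30 and 31 without control mouse 2, 3 and 4, and 20 and 19 without restraint mouse 2 and 3, with at most 1 gene called lower in each of these fits.

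**Figure D1:**
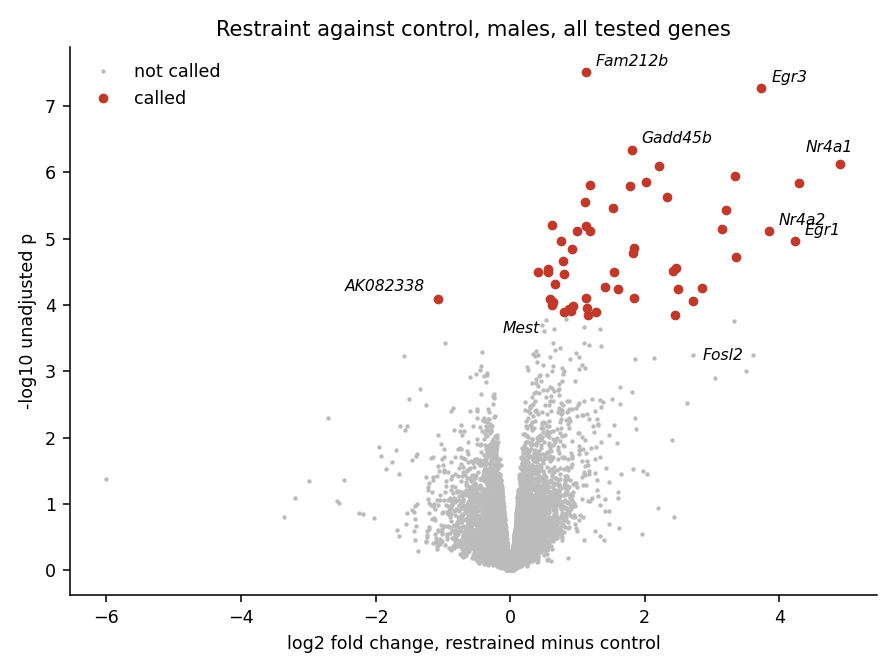
Each point is 1 of the 18271 tested genes, with the log2 fold change of restrained against control males on the horizontal axis and the negative log10 of the unadjusted p of edgeR's quasi-likelihood test on the vertical axis. The 54 called genes (red) sit on the right except for AK082338, and Nr4a1 lies farthest right at a log2 fold change of 4.91.

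The NR4A orphan nuclear receptors, ligand-independent factors that act on the Pomc promoter in corticotropes, included the called gene with the largest increase. Of the 3, 2 were called higher (median log2 fold change of the list 3.84). Nr4a1 (Nur77) was at 49.0, 21.8, 21.1 and 13.6 CPM in control mice 1 to 4 and at 744 and 844 CPM in restraint mice 2 and 3. Both restrained mice were far above every control, and control mouse 1 was the highest control. The fitted means differed 30.0-fold (log2 fold change 4.91, standard error 0.55, adjusted p = 0.00297). Nr4a2 (Nurr1) had 30.9, 13.7, 12.4 and 13.6 CPM in the controls and 234 and 278 CPM after restraint. Again the groups did not overlap (log2 fold change 3.84, standard error 0.54, adjusted p = 0.00709). Nr4a3 (Nor1), the third member, was at 7.37, 1.22, 1.28 and 1.42 CPM and reached 17.2 and 31.3 CPM, but control mouse 1 stood far above the other controls and the difference was not called (log2 fold change 3.04, adjusted p = 0.215). Without that mouse its log2 fold change was 4.22 (adjusted p = 0.0286), and all 3 receptors were called.

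Of 11 genes for AP-1 factors, the dimeric leucine zipper proteins that include Fos and Jun, 3 were called higher and none lower. A log2 fold change above 0 was found in 9 of the 11, and the median of the list was 1.34. Fosb was at 2.74, 0.862, 1.28 and 2.81 CPM in the controls and at 36.1 and 41.3 CPM after restraint (log2 fold change 4.29, standard error 0.51, adjusted p = 0.00297). Junb went from 34.4, 24.6, 22.4 and 18.3 CPM to 247 and 214 CPM (log2 fold change 3.21, standard error 0.42, adjusted p = 0.00481). In both genes the restrained mice were close to each other and the controls well below. Atf3, a stress-induced repressor of the same superfamily, was at 1.27, 1.252, 0.675 and 1.39 CPM in the controls and at 7.71 and 15.95 CPM in the restrained mice, with restraint mouse 3 at 2.07 times the level of mouse 2 (log2 fold change 3.34, standard error 0.39, adjusted p = 0.00297). Fosl2 had 74.9, 24.7, 21.1 and 20.8 CPM in the controls against 191 and 276 CPM after restraint. Its log2 fold change of 2.72 was not called (adjusted p = 0.137) with the high control mouse 1, and was 3.40 (adjusted p = 0.0158) without it. Fos itself, named after its values were seen, differed between the restrained animals more than any factor above, at 322 CPM in mouse 2 and 46.9 CPM in mouse 3 against 10.5, 27.1, 11.8 and 11.7 CPM in the controls (log2 fold change 3.60, standard error 0.79, adjusted p = 0.139).

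Of 7 genes listed for EGR zinc finger factors, which also belong to the immediate early genes, their NAB corepressors and SRF, 3 rose, with a median log2 fold change of 0.94 over the list. Egr1 was at 25.05, 17.9, 6.99 and 7.37 CPM in the controls and at 321 and 223 CPM after restraint (log2 fold change 4.23, standard error 0.61, adjusted p = 0.00900). Egr3 was nearly silent in the controls, at 0.531, 0.974, 0.604 and 0.792 CPM, and rose to 8.16 and 11.1 CPM (log2 fold change 3.73, standard error 0.33, adjusted p = 4.9e-04). Egr4 had 0.0849, 0.668, 0.533 and 0.744 CPM in the controls and 3.30 and 6.79 CPM after restraint (log2 fold change 3.35, standard error 0.51, adjusted p = 0.0135). The groups were separated in all 3 genes, and control mouse 1 was the highest control in Egr1 and the lowest in Egr3 and Egr4. Egr2 (log2 fold change 0.94, adjusted p = 0.9998) and Nab2, which encodes a corepressor that EGR factors induce (0.44, adjusted p = 0.791), were not called.

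**Figure D2:**
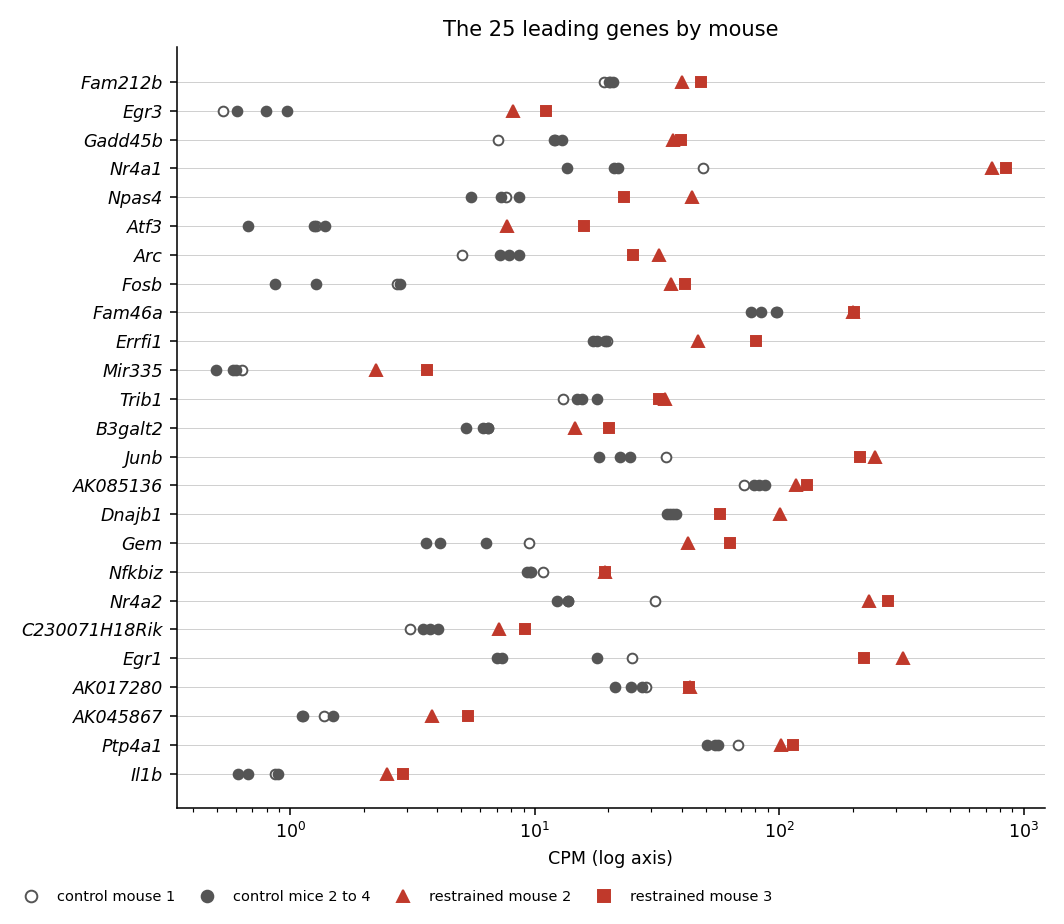
CPM on a log axis is shown for each mouse and for the 25 genes of smallest p, from top to bottom. The restrained mice (red) lie to the right of all 4 controls in every row, with a wide gap in Nr4a1 and a narrow one in AK085136.

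Promoters are printed for the 5 leading genes of smallest p that have an entry in the RefSeq promoter table (GRCm38.p6), because these genes rose together in the same mice. Each sequence covers the 250 bases before a start of the gene in that table, 5′ to 3′ on the strand of the gene. Capitals mark the core of the cAMP response element (CRE), TGACG on either strand (CGTCA when read from the other). The windows are chr15:101266596-101266845 (plus strand) for Nr4a1, chr19:4989972-4990221 (minus) for Npas4, chr1:191183334-191183583 (minus) for Atf3, chr3:105704349-105704598 (plus) for Fam212b and chr10:80929841-80930090 (plus) for Gadd45b. Those of Nr4a1, Npas4 and Atf3 lie inside the spans of these genes in the GENCODE M21 annotation, and so do not precede the outermost start given there.
Nr4a1: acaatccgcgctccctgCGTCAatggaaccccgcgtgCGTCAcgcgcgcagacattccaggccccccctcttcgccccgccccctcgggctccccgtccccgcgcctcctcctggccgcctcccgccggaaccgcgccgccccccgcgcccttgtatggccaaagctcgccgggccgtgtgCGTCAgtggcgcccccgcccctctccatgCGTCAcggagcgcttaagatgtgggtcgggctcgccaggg
Npas4: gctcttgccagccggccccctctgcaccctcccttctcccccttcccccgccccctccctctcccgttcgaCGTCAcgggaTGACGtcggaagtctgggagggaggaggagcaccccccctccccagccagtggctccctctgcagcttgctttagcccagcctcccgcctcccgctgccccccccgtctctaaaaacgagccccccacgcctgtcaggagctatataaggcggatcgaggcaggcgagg
Atf3: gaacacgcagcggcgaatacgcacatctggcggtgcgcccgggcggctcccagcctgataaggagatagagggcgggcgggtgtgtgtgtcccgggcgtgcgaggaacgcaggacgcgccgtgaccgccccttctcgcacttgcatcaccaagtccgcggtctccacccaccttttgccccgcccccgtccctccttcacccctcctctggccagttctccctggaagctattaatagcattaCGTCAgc
Fam212b: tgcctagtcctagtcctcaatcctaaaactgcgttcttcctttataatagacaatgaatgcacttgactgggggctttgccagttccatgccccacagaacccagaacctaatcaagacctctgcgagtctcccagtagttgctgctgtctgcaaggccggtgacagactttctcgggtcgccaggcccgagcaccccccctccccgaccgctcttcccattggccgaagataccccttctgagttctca
Gadd45b: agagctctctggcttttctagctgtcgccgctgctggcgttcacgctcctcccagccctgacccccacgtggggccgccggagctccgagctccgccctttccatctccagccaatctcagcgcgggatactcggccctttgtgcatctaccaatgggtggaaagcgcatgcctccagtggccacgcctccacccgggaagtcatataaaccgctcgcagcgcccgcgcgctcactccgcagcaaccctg
The Nr4a1 window held 4 CRE cores, that of Npas4 held 2 on opposite strands, that of Atf3 held 1 within 7 bases of the start, and the other windows held none. Over the 35 genes higher after restraint that have a promoter entry, 16 windows (45.7%) held a CRE core, against 25.1% of the 12869 tested genes with an entry and 17.8% of all 27025 entries. Besides the 3 genes above these were Fosb, Junb, Dnajb1, Nr4a2, Ptp4a1, Egr4, Tob1, Dusp5, Ccnl1, Btg2, Dusp1, B230216N24Rik and Prdm1. The complete palindrome TGACGTCA, which contains the core, was in 3 of the 35 windows (Ccnl1, Btg2 and Dusp1; 8.57%), against 2.55% of the tested genes. A CArG box, the site of SRF, was in 1 (Dusp5; 2.86% against 1.22%), an AP-1 site TGANTCA in 2 (Prdm1 and Slfn14; 5.71% against 4.61%), and the NR4A site AAAGGTCA (0.886% of the tested genes) and the EGR site GCGTGGGCG (1.03%) in 0. All motifs were searched on both strands. These matches describe letters in a window and do not show binding.

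Npas4, a transcription factor gene driven by calcium influx, was at 7.599, 5.48, 8.59 and 7.30 CPM in the controls and at 43.9 and 23.1 CPM after restraint, where mouse 2 had 1.90 times the level of mouse 3 (log2 fold change 2.21, standard error 0.25, adjusted p = 0.00297). Arc, whose product regulates the traffic of glutamate receptors at synapses, went from 5.03, 7.82, 7.21 and 8.60 CPM to 32.3 and 25.3 CPM (log2 fold change 2.01, standard error 0.24, adjusted p = 0.00297). Restrained mice and controls did not overlap in either gene. With Btg2, these were the 3 called genes among 23 IER, KLF and other early response genes, whose median log2 fold change was 0.44. Ier2 missed the limit at 1.34 (adjusted p = 0.0693), and was 1.49 (adjusted p = 0.0357) without control mouse 1.

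Of 17 feedback genes of MAP kinase signalling 4 rose, or 3 without control mouse 1, and the median log2 fold change of the list was 0.27. Dusp1, a phosphatase that inactivates MAP kinases and a textbook glucocorticoid target, was at 16.1, 38.9, 18.0 and 18.9 CPM in the controls and at 246 and 84.7 CPM after restraint. Restraint mouse 2 had 2.90 times the level of mouse 3, and the lower of them was still above control mouse 2, the highest control (log2 fold change 2.85, standard error 0.48, adjusted p = 0.0269). Without control mouse 1 the adjusted p was 0.0534. Errfi1, an inhibitor of the EGF receptor, rose from 19.7, 17.9, 19.3 and 17.4 CPM to 46.6 and 80.5 CPM (log2 fold change 1.78, standard error 0.22, adjusted p = 0.00297). Its controls lay within a narrow band and the restrained mice differed by 1.73 times. Dusp5 rose by 1.54 (adjusted p = 0.0177) and Dusp14 by 1.156 (adjusted p = 0.0483) on the log2 scale.

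Of 20 genes of the cAMP pathway and its feedback, 2 rose, and the median log2 fold change was 0.09. Gem, a small GTPase that restrains voltage-gated calcium channels, was at 9.51, 6.32, 3.59 and 4.11 CPM in the controls and at 42.4 and 63.0 CPM after restraint (log2 fold change 3.14, standard error 0.43, adjusted p = 0.00709). Sik1, the salt-inducible kinase that holds CREB coactivators in the cytoplasm, was at 23.0, 9.99, 10.3 and 9.29 CPM and reached 79.5 and 94.8 CPM (log2 fold change 2.72, standard error 0.49, adjusted p = 0.0365). Control mouse 1 was the highest control in both genes, and neither group overlapped the other. Regulators of G protein signalling missed the limit, namely Rgs2 (log2 fold change 0.64, adjusted p = 0.105) and Rasd1 (1.21, adjusted p = 0.341), although Rgs2 was called without control mouse 1 (0.72, adjusted p = 0.0430). Crhr1, which encodes the CRF receptor of corticotropes, was at 20.97, 17.94, 15.59 and 17.98 CPM in the controls and at 15.002 and 19.44 CPM after restraint, with overlapping groups.

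Further called genes encode other proteins of signalling and metabolism. Fam212b (Inka2), which encodes an inhibitor of the kinase PAK4, had the smallest p of all genes. It was at 19.2, 21.004, 20.3 and 20.1 CPM in the controls, a narrow range, and at 39.9 and 48.0 CPM after restraint (log2 fold change 1.13, standard error 0.10, adjusted p = 4.9e-04). Fam46a, the gene of a poly(A) polymerase, went from 97.5, 98.4, 84.5 and 76.3 CPM to 201 and 203 CPM (log2 fold change 1.18, adjusted p = 0.00297). Ptp4a1, a membrane-bound phosphatase, had 67.8, 56.2, 50.8 and 54.6 CPM in the controls and 101 and 114 CPM in the restrained mice (log2 fold change 0.91, adjusted p = 0.0111). None of these overlapped between groups. B3galt2, a galactosyltransferase of the Golgi, went from 5.23 to 6.46 CPM in the controls to 14.6 and 20.2 CPM (log2 fold change 1.53, adjusted p = 0.00481). Slc25a25, a mitochondrial carrier of adenine nucleotides, rose by 1.14 on the log2 scale (adjusted p = 0.0427).

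Regulators of growth arrest and cell death were represented by 2 called genes of 17, beside a median log2 fold change of 0.05 for the list. Gadd45b, a stress sensor upstream of p38 and JNK kinases, was at 7.09, 12.9, 12.1 and 12.0 CPM in the controls and at 36.9 and 39.7 CPM after restraint (log2 fold change 1.80, standard error 0.19, adjusted p = 0.00286). The restrained mice were nearly equal, and control mouse 1 was the lowest control. Trib1, a pseudokinase that directs C/EBP factors to degradation, had 13.0, 14.9, 17.9 and 15.6 CPM in the controls and 34.1 and 32.3 CPM after restraint (log2 fold change 1.12, standard error 0.14, adjusted p = 0.00426). The next genes of the list by p were Phlda1 (log2 fold change 0.82, adjusted p = 0.0532), which had the smallest adjusted p of all genes not called, and Bcl2l11 (0.54, adjusted p = 0.0551), the gene of the death activator Bim. Bax and the other members were not called.

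Of 13 heat shock chaperone genes 3 rose, with different levels in the restrained mice and a median log2 fold change of 0.26 over the list. Hspa1a was at 11.3, 13.0, 13.3 and 17.6 CPM in the controls, at 120 CPM in restraint mouse 2 and at 26.5 CPM in mouse 3. Mouse 2 was 4.55 times as high as mouse 3, and mouse 3 was only moderately above the highest control (log2 fold change 2.41, standard error 0.39, adjusted p = 0.0177). Hspa1b behaved alike, with 10.5, 11.7, 12.5 and 16.1 CPM in the controls and 115 and 25.1 CPM after restraint. These neighbouring genes are near-identical copies on chromosome 17, so their counts may be shared between them and they are not separate evidence. Dnajb1, the partner of these chaperones, was at 36.8, 34.8, 38.0 and 35.7 CPM in the controls and at 101 and 57.4 CPM in mice 2 and 3, again higher in mouse 2 (log2 fold change 1.12, standard error 0.15, adjusted p = 0.00709). The other members were not called, among them Hspa8 (log2 fold change 0.33, adjusted p = 0.621), Bag3 (0.51, adjusted p = 0.791) and Hspb1 (0.26, adjusted p = 0.9998).

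Among 16 tested cytokine and NF-kB feedback genes, 2 rose. Il1b, the gene of interleukin-1 beta, was low throughout, at 0.870, 0.612, 0.888 and 0.672 CPM in the controls and 2.48 and 2.89 CPM after restraint (log2 fold change 1.82, standard error 0.27, adjusted p = 0.0121). Nfkbiz, an atypical nuclear inhibitor of NF-kB that also serves as a cofactor, rose from 10.8, 9.26, 9.66 and 9.56 CPM to 19.4 and 19.5 CPM (log2 fold change 0.99, standard error 0.14, adjusted p = 0.00709). The groups were separated in both, and the list as a whole had a median log2 fold change of 0.09. Without Cd74, macrophage and lymphocyte markers summed to 47.7 CPM in restraint mouse 2, within the controls, and to 43.2 CPM in mouse 3, below them. The part of these cells in the level of Il1b was not tested. Ptgs2 (log2 fold change 1.85, adjusted p = 0.143) was called without control mouse 1, at 2.29 (adjusted p = 0.0428), and Nfkbia had 0.48 (adjusted p = 0.283). Il6, Tnf, Cxcl2 and Ccl3 were below the count filter.

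Of 20 genes for glucocorticoid receptors and targets, Dusp1 and Ddit4 rose, and the list's median log2 fold change was 0.20. Ddit4, an inhibitor of the growth kinase mTOR, was at 38.7, 46.0, 45.1 and 49.1 CPM in the controls and at 67.0 and 64.9 CPM after restraint (log2 fold change 0.56, standard error 0.09, adjusted p = 0.0177). Both restrained mice were above all controls and close to each other. The receptor gene Nr3c1 was at 121, 100.2, 82.4 and 70.5 CPM in the controls and at 83.8 and 74.6 CPM after restraint, with full overlap (log2 fold change -0.24, adjusted p = 0.9998). Further targets by p were Nfkbia and Klf9 (0.35, adjusted p = 0.305). Without control mouse 1, Ddit4 was the only called gene of the list. None of 19 circadian clock genes was called. Per1, which belongs to both lists, had 109, 59.2, 55.8 and 49.1 CPM in the controls and 142 and 213 CPM after restraint, so that the groups did not overlap although control mouse 1 was high (log2 fold change 1.38, adjusted p = 0.352, and 1.70 with adjusted p = 0.0708 without that mouse). Nfil3, a repressor of the clock output, was not called either (log2 fold change 0.84, adjusted p = 0.351).

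The hormone genes themselves did not pass the test. None of 12 corticotrope and melanotrope genes, 18 pituitary hormone and lineage genes or 14 tested genes of granins, neuropeptides and neurotrophins was called, with median log2 fold changes of 0.19, 0.04 and 0.12, or of 0.051, 0.026 and 0.19 without control mouse 1. Pomc was at 11423, 58418, 49603 and 63528 CPM in control mice 1 to 4 and at 39019 and 68226 CPM in the restrained mice. The groups overlapped, and control mouse 1, which had little neurointermediate lobe transcript, was by far the lowest (log2 fold change 0.23, standard error 0.48, adjusted p = 0.9998). Without that mouse the sign turned, to -0.092 (standard error 0.27, adjusted p = 0.988). In corticotrope and melanotrope genes the smallest p was that of Neurod1 (0.64, adjusted p = 0.791), followed by the lineage factor Tbx19 (0.37, adjusted p = 0.9998). In the hormone list it was Gata2, a factor of gonadotropes and thyrotropes (-0.36, adjusted p = 0.976), and among the granins Chgb (0.34, adjusted p = 0.891). At 2 against 4 mice the standard error of 0.48 for Pomc was too large for a moderate change to be detected.

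**Figure D3:**
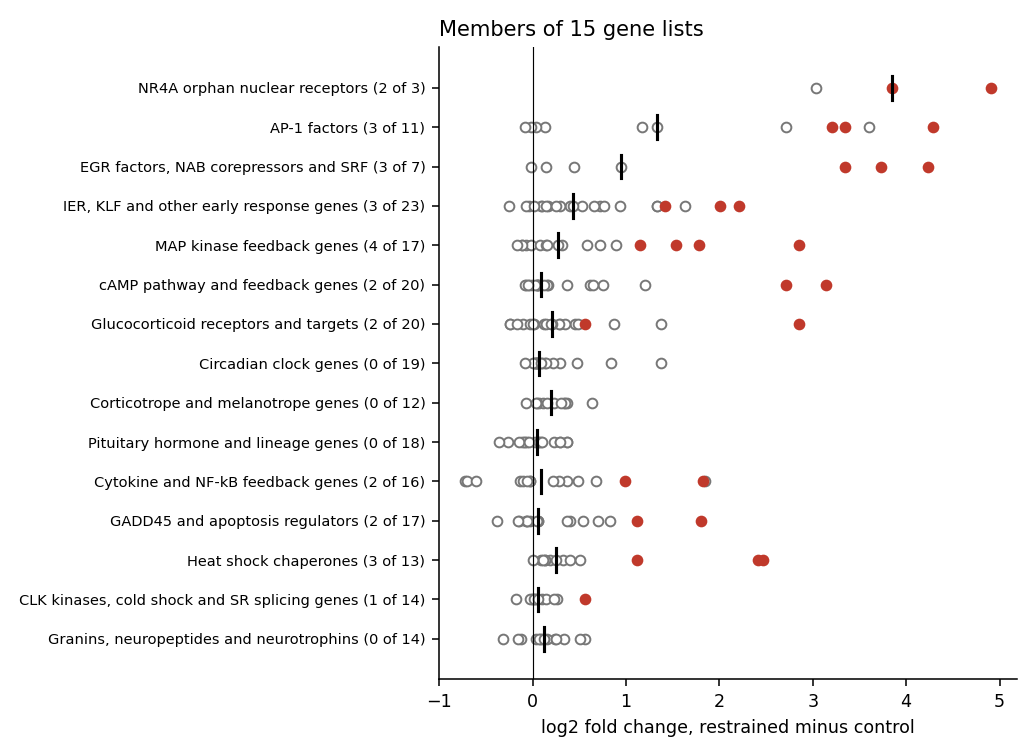
Each point is the log2 fold change (restrained minus control males) of 1 member of the 15 gene lists, filled where called, with a black bar at the median of the list and the number of called and tested members beside its name. The lists are not sorted by median. Medians range from 3.84 for the NR4A receptors to 0.04 for hormone and lineage genes, and most members of the lists with small medians lie near 0.

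Single genes of RNA processing rose by small amounts. Clk1, a kinase of SR splicing factors, was at 153, 128, 129 and 121 CPM in the controls and at 195 CPM in both restrained mice (log2 fold change 0.56, standard error 0.09, adjusted p = 0.0177). It was the called gene among 14 CLK kinases, cold shock and SR splicing genes, whose median log2 fold change was 0.05, and Clk4 joined it without control mouse 1. Ccnl1, a cyclin of nuclear speckles, had the smallest change of all called genes, from 72.0, 65.4, 65.7 and 64.6 CPM to 87.2 and 91.2 CPM (log2 fold change 0.42, standard error 0.07, adjusted p = 0.0177). The groups did not overlap in either gene, and both calls were lost without control mouse 2, 3 or 4.

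Of the 54 called genes, 26 belonged to one of the 15 gene lists and 28 to none. Among the latter were several transcripts that the count table names only by cDNA or clone. AK085136 was at 71.6, 82.7, 87.4 and 79.2 CPM in the controls and at 117 and 130 CPM after restraint (log2 fold change 0.62, adjusted p = 0.00709). AK017280, AK045867, AK021342 and AK165451 had log2 fold changes of 0.75, 1.85, 1.597 and 1.27, and C230071H18Rik, B230216N24Rik and Gm29766 of 1.19, 1.13 and 0.80, all called. AK165451 lost its call when any of the controls was left out (without control mouse 1, 1.27 with adjusted p = 0.0827). AK021342, B230216N24Rik and Gm29766 lost theirs without control mouse 2, 3 or 4. B230216N24Rik lies within Pam on the same strand, so that reads could be assigned to either. The only gene called lower, AK082338, was at 2.31, 2.23, 2.70 and 2.42 CPM in the controls and at 0.998 and 1.27 CPM after restraint, below every control (log2 fold change -1.07, standard error 0.19, adjusted p = 0.0348). It was not called in the fit of the 6 mice alone, in which 35 of the 54 genes were called.

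Some called genes are best known from other tissues and were counted at very low levels here. Gnat1, the transducin subunit of rod photoreceptors, had 9, 8, 4 and 7 counts in the controls and 34 and 40 counts after restraint. The groups were separated (log2 fold change 2.49, standard error 0.42, adjusted p = 0.0269). Chrne, a subunit of the acetylcholine receptor of adult muscle, rose by 1.85 on the log2 scale (adjusted p = 0.0348, and 0.0744 without control mouse 1) at no more than 0.993 CPM in any of the 6 mice, and Slfn14, a ribosome-associated nuclease, by 2.45 (adjusted p = 0.0483) at no more than 0.739 CPM. Gnat1, Chrne and Slfn14 were not called without control mouse 2, 3 or 4. Prdm1 (Blimp1) and Bhlha15 (Mist1), transcription factors of secretory cells, rose by 0.91 (adjusted p = 0.0443) and 0.64 (adjusted p = 0.0365).

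The called genes had a shorter median span on the genome than all tested genes. Of the 53 higher genes, 45 had a position in GENCODE M21 that could be matched to them, with a median span of 8.75 kb from start to end including introns, while the 16355 tested genes with a position had a median of 23.1 kb. Spans under 10 kb were found in 23 of the 45 called genes and in 26.6% of the tested genes. Nr4a1 lies on chromosome 15 from 101254269 to 101274795, Egr3 on chromosome 14 from 70077203 to 70082614, Fosb on chromosome 7 from 19302696 to 19310051, Junb on chromosome 8 from 84974484 to 84978718 and Arc on chromosome 15 from 74669083 to 74672570. The part of gene span in these calls was not tested.

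The restrained mice did not respond to the same degree in every gene. Restraint mouse 3 was above mouse 2 in 34 of the 53 higher genes and mouse 2 above mouse 3 in 19, while mouse 2 was above mouse 3 in 47.1% of all tested genes. They differed by more than 1.5-fold in 10 of the 53, against 10.8% of all tested genes. Mouse 2 was the higher in Hspa1a, Hspa1b, Dusp1, Npas4 and Dnajb1, and mouse 3 in Atf3, Egr4, Errfi1, Mir335 and Chrne. With 2 animals, these differences cannot be separated from ordinary variation between mice.

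The same stressor was applied to other mice of the study that share no animal with the 6 compared here, and the 53 genes were followed in them. In males after PSD, 3 restrained against 3 not restrained, all 53 had a log2 fold change above 0 (49.2% of all tested genes), 48 had one with an unadjusted p under 0.05 (5.57%), and 21 were called higher (0.257%). Their median log2 fold change was 1.04, against 1.41 in the comparison that chose them. Both male comparisons came from the same fit and use the same estimate of spread per gene. The counts of 48 and 21 are therefore not independent of the choice of genes. In females without PSD, 4 restrained against 4 controls, 51 of 53 were above 0 (52.7% of all tested genes), 47 of them with an unadjusted p under 0.05 (5.6%), 26 were called higher (0.482%), and the median was 1.06. Over all genes, the PSD males gave 52 calls, but 3 without PSD mouse 1 or 2, 14 and 5 without PSD + restraint mouse 1 and 2, and 79 without PSD + restraint mouse 3. The females gave 98 calls, 56, 45 and 55 without control mouse 1, 3 and 4, 52 and 57 without restraint mouse 2 and 4, and 178 without restraint mouse 3. The 53 genes were chosen for a large change in the first comparison, which by itself makes a smaller change elsewhere likely.

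Fosb, Atf3 and Il1b rose in all 3 comparisons. On the log2 scale Fosb rose by 3.02 in PSD males (adjusted p = 0.0242) and by 4.06 in females (adjusted p = 7.5e-04). Atf3 rose by 2.70 in PSD males (adjusted p = 0.0141) and by 2.85 in females (adjusted p = 0.0363), and Il1b by 1.91 (adjusted p = 0.0153) and 2.82 (adjusted p = 4.2e-05). Neutrophil markers summed to 86.6 CPM in PSD + restraint mouse 2, to 8.74 and 2.60 CPM in mice 1 and 3, and to 1.14 to 13.4 CPM in the PSD males left unrestrained, and their part in the level of Il1b was not tested. Fam212b (1.43 in PSD males, adjusted p = 2.5e-05, and 1.249 in females, adjusted p = 0.00180) and Mest (0.98, adjusted p = 0.0215, and 1.04, adjusted p = 0.00858) also rose in both, and by about as much as here. Nr4a1 was at 172, 84.1 and 471 CPM in the PSD males left unrestrained, above all 4 home cage controls, and at 799, 1045 and 815 CPM after PSD and restraint. The restrained mice with PSD thus overlapped with those without it, and the log2 fold change within PSD males was 1.87 (adjusted p = 0.218). Egr1 was at 36.9, 49.0 and 212 CPM in unrestrained PSD males and at 113, 109 and 150 CPM in restrained ones, which overlapped (log2 fold change 0.32, adjusted p = 0.896).

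Tob1 and Dusp1 were the genes without an increase in females. Tob1, an antiproliferative adaptor of mRNA deadenylation, was at 69.3, 62.1, 65.3 and 57.1 CPM in control males and at 110 and 108 CPM after restraint (log2 fold change 0.78, adjusted p = 0.0145), whereas its log2 fold change in females was -0.04 (adjusted p = 0.979) and in PSD males 0.07 (adjusted p = 0.891). For Dusp1 it was -0.38 in females (adjusted p = 0.919) and 1.2498 in PSD males (adjusted p = 0.385). Tested directly, 0 genes had an adjusted p of 0.05 or less for the interaction of PSD and restraint or for the difference between the sexes. In edgeR 702 genes had an unadjusted p under 0.05 for the interaction and 804 for the sex difference, and DESeq2 also called 0 in both. At that unadjusted limit, 20 of the 54 called genes passed for the interaction (3.84% of all tested) and 15 for the sex difference (4.25%), but both contrasts contain the fold change by which the genes were chosen, and nothing is read from these counts.

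**Figure D4:**
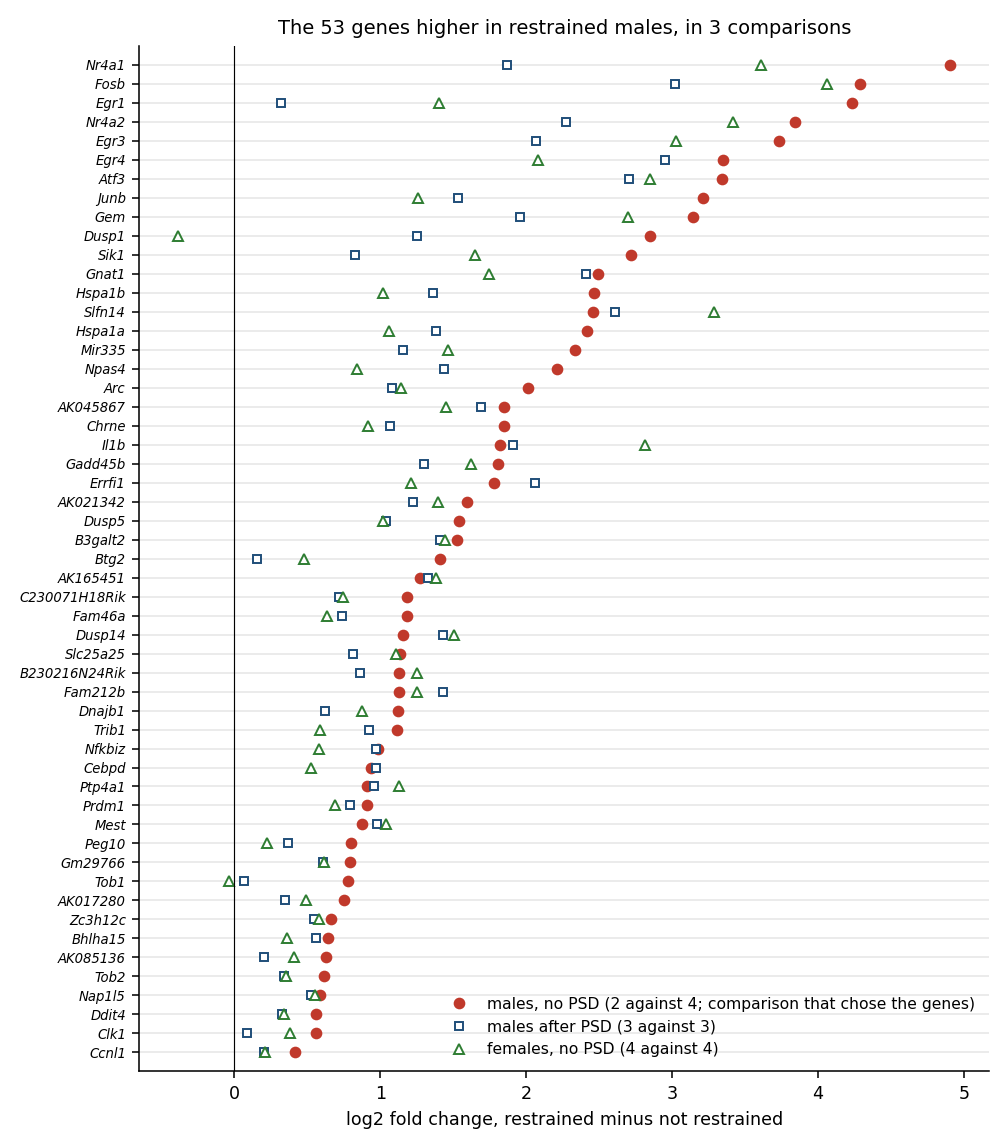
Log2 fold changes of the 53 genes higher in restrained males are shown for the comparison that chose them (filled circles), for restraint within PSD males (squares) and for females without PSD (triangles). All squares lie above 0, and the triangles of Dusp1 and Tob1 are the ones at or below it.

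Control mouse 1 lay between the groups in several early response genes. It was the highest of the 4 controls in 24 of the 53 higher genes and the lowest in 15, and the same mouse was the highest in 30.7% and the lowest in 30.6% of all tested genes. In Nr4a1, Nr4a2, Nr4a3, Fosl2, Sik1 and Per1 it lay above the other controls and below both restrained mice, and in the 6 neurointermediate lobe markers it lay below all other mice of the comparison. Leaving it out raised the log2 fold change of Nr4a2 from 3.84 to 4.27 (adjusted p = 0.00584) and that of Sik1 from 2.72 to 3.15 (adjusted p = 0.0129). The call of Sik1 was lost without control mouse 2, 3 or 4. With a score of the neurointermediate lobe genes as a term of the model, 58 genes were called, 48 of them among the 54.

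**Figure D5:**
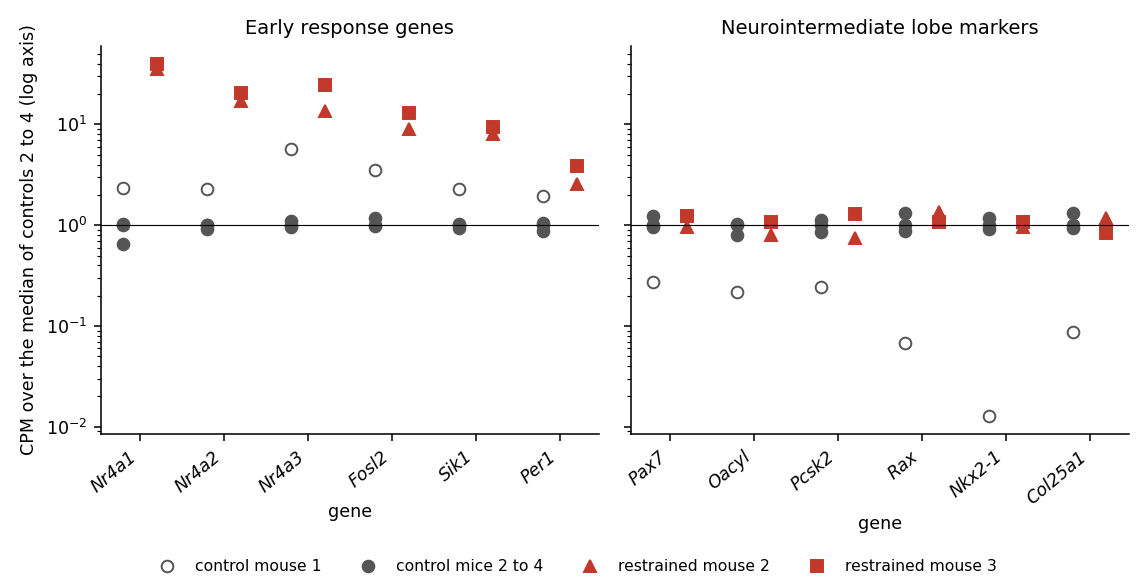
CPM of each mouse is divided by the median of control mice 2 to 4 and shown on a log axis for 6 early response genes (left) and 6 neurointermediate lobe markers (right). Control mouse 1 (open circles) lies between the other controls and the restrained mice on the left, and below all of them on the right.

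The calls that did not depend on any 1 of the 6 mice compared were fewer. PSD males, which entered the same fit, were not left out for this comparison. Under each of the 6 fits that left out 1 mouse, 11 genes were called every time: Fam212b, Egr3, Gadd45b, Nr4a1, Npas4, Atf3, Arc, Fosb, Fam46a, Junb and Dnajb1. Junb was not called with edgeR's robust option. Without control mouse 2, 3 or 4, the calls of Sik1, Clk1, Ccnl1, Btg2, Tob2, Slc25a25, Nap1l5, Zc3h12c, Dusp14 and Prdm1 were lost. All 54 genes kept the direction of their change in every alternative fit that gave a value. Both restrained mice lay outside the range of the controls in each of them, so most of these fits could hardly have turned a sign.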

How the data were processed

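The authors sequenced stranded mRNA libraries of whole pituitaries, used MapSplice for alignment to mm10 and HTSeq 0.9.1 for counting on gene models of UCSC, and the deposited values are raw counts per gene and mouse. Whether strand was used in counting was not given in the sources used here, so that a gene and an overlapping neighbour, as for Junb and Prdx2 or Il1b and Il1bos, may share reads. The deposited table of normalized counts was not used. Mice were grouped by their labels, and animals with the same number in different groups are different mice.

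Of 32594 genes, the 18271 kept by filterByExpr were tested with edgeR 4.0.16 (R 4.3.3) in all 12 males, with the study's formula of PSD, restraint and an interaction term, so that the 2 restrained mice share the spread of all groups. The coefficient of restraint is restraint minus control. CPM used TMM factors over all 28 mice. Fold changes are not shrunken. Females were fitted alike, and the sex difference was tested in a model of the 28 mice that gives each sex and treatment its own mean. Values per mouse were planned for the 25 genes of smallest p whose restrained mice lay beyond all controls, and were also given for some other named genes. Other called genes, up to 4 genes per list by p, and Pomc, Crhr1 and Nr3c1 could be named. Outside this rule, Fos, Egr2, Bag3, Hspb1 and Bax were named among the tested list members. The members and lists were chosen with earlier results of these data known. The lists hold 224 genes (219 tested), and their median log2 fold changes stand beside that of all tested genes. The scripts were tested on simulated data. Mice of a group differed by more than counting noise (chi-square per degree of freedom 13.1 to 104), so each was counted as its own replicate. Alternatives were DESeq2 1.42.0, its size factors, library size alone, other filters, other sets of mice and a replicate block. Others were a neurointermediate lobe covariate, edgeR's robust option, no fold change limit, and each of the 6 mice compared left out in turn. Leaving out mice of the other comparisons was added after seeing the data.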

Additional observations from a re-analysis of the deposited data

Results flagged for a closer look

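Single control males stood apart from the other 3 controls in 10 of 72 genes examined (13.9%), by a gap to the nearest control that exceeded Dixon's limit for 4 values. Chance alone flags about 1 in 20 groups, but the 72 were called genes and genes named in the text, chosen with their values known. All were measured in the same 4 mice, and the share over all tested genes was not computed. The rates are therefore not comparable. Control mouse 1 was the one apart in 8 of the 10 genes. It was the highest control for Nr4a2 (30.9 CPM, next 13.7), Nr4a3 (7.37 CPM, next 1.42), Fosl2 (74.9 CPM, next 24.7), Sik1 (23.0 CPM, next 10.3), Per1 (109 CPM, next 59.2) and Ccnl1 (72.0 CPM, next 65.7). It was the lowest for Gadd45b (7.09 CPM, next 12.0) and Bcl2l11 (20.1 CPM, next 22.5). Control mouse 2 was apart as the highest control in Dusp1 (38.9 CPM, next 18.9) and Fos (27.1 CPM, next 11.8). Of the 8 sums of cell type markers, that of erythroid cells was apart in control mouse 1, at 2995 CPM against 1843 CPM in the next control. The neurointermediate lobe sum of that mouse, 380 CPM, did not pass the same limit because the other controls were themselves spread from 1383 to 1765 CPM.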

How the results depend on the processing

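No called gene changed direction in any alternative that gave a value. In each of these genes both restrained mice lay outside the range of the controls. Leaving out 1 mouse, or another filter or scaling, could therefore hardly turn a sign, and no stability is read from it. The count of 54 stayed within 1.5 times under DESeq2's size factors (54), library size alone (42), no filter (68) and at least 10 counts in every male (48). It did so too with only the 6 mice (47), all 28 mice (48), the lobe covariate (58) and the robust option (42). Dropping the fold change limit could not change the count, because no gene with an adjusted p of 0.05 or less was below that limit. The genes behind a count changed more, as 35 of the 54 were called with only the 6 mice and 39 with all 28 mice. Genes not called with only the 6 mice included Egr4, Hspa1a, Hspa1b, Dusp5, Ddit4, Clk1, Ccnl1, Peg10 and Mest. DESeq2 with shrunken fold changes called 100, among them all 54, at smaller fold changes (Nr4a1 0.41 in place of 4.91, Egr1 0.36 in place of 4.23, Fosb 0.44 in place of 4.29, Fam212b 0.98 in place of 1.13 on the log2 scale). Leaving out 1 mouse gave 19 to 63. For restraint within PSD males (52 called), DESeq2 called 175 and leaving out 1 mouse gave 3 to 79, and for females (98 called) these were 196 and 45 to 178. Of 1147 comparisons of named genes with an alternative, 851 kept their side of the limit, 268 lost and 28 gained a call. The cause was not tested.

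The shared replicate numbers stand for different animals. Deviations of same-numbered mice did not go together (15 pairs, r from -0.239 to 0.130, median -0.062, against 0.0504 for other pairs). With a replicate block 4 genes were called, Fam212b, Egr3, Gadd45b and Arc. Depth limits genes such as Gnat1, which had 4 to 9 counts in each control.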

Other observations

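Gene groups put together after the values were seen held further called genes. Of 31 tested imprinted genes, which are expressed from 1 parental copy, Mest, Peg10 and Nap1l5 rose after restraint and none fell, beside a median log2 fold change of 0.12 (0.29% of all tested genes were called higher). Mest was at 298, 337, 449 and 409 CPM in the controls and at 692 and 674 CPM in the restrained mice (log2 fold change 0.87, standard error 0.16, adjusted p = 0.0436). Both restrained mice were well above the controls, and without control mouse 1 the adjusted p was 0.0518. Peg10, a gene derived from a retrotransposon, went from 48.8, 42.7, 61.1 and 49.4 CPM to 96.8 and 78.1 CPM (log2 fold change 0.80, adjusted p = 0.0186). Nap1l5, which lies in an intron of Herc3, went from 202, 184, 179 and 169 CPM to 261 and 290 CPM (log2 fold change 0.59, adjusted p = 0.0350). Mir335, whose hairpin lies in Mest on the same strand (chromosome 6, 30741299 to 30741396, within 30723547 to 30748465), had 30, 21, 14 and 25 counts in the controls and 65 and 157 counts after restraint (log2 fold change 2.33, standard error 0.29, adjusted p = 0.00399). Reads of the Mest precursor and of the microRNA locus cannot be told apart in these libraries.

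In the BTG/TOB family, antiproliferative proteins that recruit the deadenylase complex, 3 of 5 tested members were called higher (0.29% of all tested genes). The other 2 were not called, and the median log2 fold change of the family was 0.61. Btg2 was at 126, 122, 124 and 120.0 CPM in the controls and at 358 and 298 CPM after restraint (log2 fold change 1.41, standard error 0.24, adjusted p = 0.0269). Tob1 rose by 0.78 (adjusted p = 0.0145) and Tob2 by 0.61 (adjusted p = 0.0399) on the log2 scale, and the restrained mice lay above all controls in each of the 3 genes. Btg2 and Tob2 lost their calls without control mouse 2, 3 or 4. In PSD males and in females Btg2 had 0.15 (adjusted p = 0.874) and 0.48 (adjusted p = 0.632). Of 4 Regnase genes, which encode nucleases of inflammatory mRNAs, Zc3h12c rose by 0.66 (adjusted p = 0.0251), beside a median of 0.25 for the list. Of 5 tested C/EBP genes (median log2 fold change 0.32), Cebpd was called at 0.94 (adjusted p = 0.0409), and Cebpb had 1.26 (adjusted p = 0.398). Without control mouse 1, Cebpd had 0.88 and was not called (adjusted p = 0.0708).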
